A study of Mus musculus with 120 samples.

Results

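Genes that mark B lymphocytes were measured in whole immunological niches (INs), which are microporous poly(ε-caprolactone) scaffolds placed under the skin of mice and removed for bulk RNA sequencing. The set held 8 genes, Ms4a1, Cd79a, Cd79b, Pax5, Cr2, Fcer2a, Blk and Bank1, taken by name from the 55487 genes present in both deposited count tables, and all 8 were found. The rule names them by their known roles and sets no condition on a measured value. The INs came from female NOD/ShiLtJ mice, a strain that develops autoimmune diabetes spontaneously, and from NOR/LtJ mice, a related strain used as the control, all implanted at 4 weeks of age, with no treatment or engineered allele named in the labels. NOD mice that became hyperglycemic (progressors, 58 libraries of 10 mice) were sampled at 6 weeks of age, at 7, 5, 3 and 1 weeks before onset and at onset. NOD mice that did not (nonprogressors, 39 libraries, of which 33 belong to the 11 mice of the age series) were sampled at 5 ages of 6, 10, 14, 18 and 22 weeks, and 6 further libraries are labelled by 31, 38 or 108 days post implant, as mouse 1 and mouse 2 at each time, and the labels do not say whether these are mice 1 and 2 of the age series. NOR controls (23 libraries of 5 mice) were sampled at the same 5 ages. Each explanted IN was replaced by a new one, so successive libraries of a mouse are different scaffolds, and each library is an average over all cells of that scaffold.

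B lymphocytes sense antigen through a surface immunoglobulin that signals by way of the CD79A and CD79B chains, encoded by Cd79a and Cd79b. The kinase BLK and the adaptor BANK1 act downstream of that receptor, the complement receptor CR2 (CD21) and the low-affinity IgE receptor FCER2A (CD23) adjust the response of mature cells, and MS4A1 (CD20) is the surface protein used most widely to recognize the lineage. PAX5 is the transcription factor that commits precursors to the lineage and keeps it, and it is lost when a B cell becomes an antibody-secreting plasma cell. Some of these genes are also used outside B cells, Cr2 by follicular dendritic cells and Blk by plasmacytoid dendritic cells and some T cells. NOD mice lacking B cells are largely protected from diabetes, and B cells are a regular part of the infiltrate around their islets.

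The members lie on 8 chromosomes of GRCm38. On the minus strand are Ms4a1 (chr19:11249675-11266241), Cd79b (chr11:106311341-106314762), Pax5 (chr4:44524757-44710487), Cr2 (chr1:195136811-195176716), Fcer2a (chr8:3681737-3694175), Blk (chr14:63372836-63417037) and Bank1 (chr3:136053363-136326066), and Cd79a (chr7:24897381-24902197) is on the plus strand. Pax5 shares 636 exon bases with 5730488B01Rik and 125 with Gm12462, both on the opposite strand. The sources do not say whether counting used strand, so reads over those bases cannot be told apart. RefSeq promoters (GRCm38.p6, 250 bases before and 50 after a gene's start) matched 5 of the 8 members. They are shown for Cd79a and Pax5, which rose at onset, and for Cr2, which did not pass that test. Capitals mark letters of searched motifs on either strand.
Cd79a promoter (chr7:24897247-24897546, plus strand): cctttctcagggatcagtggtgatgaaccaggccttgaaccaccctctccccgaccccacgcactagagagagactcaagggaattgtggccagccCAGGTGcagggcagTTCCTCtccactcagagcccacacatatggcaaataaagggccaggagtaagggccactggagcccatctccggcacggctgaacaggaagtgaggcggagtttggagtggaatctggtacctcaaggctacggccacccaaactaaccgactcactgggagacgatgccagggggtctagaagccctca
Pax5 promoter (chr4:44710645-44710944, minus strand): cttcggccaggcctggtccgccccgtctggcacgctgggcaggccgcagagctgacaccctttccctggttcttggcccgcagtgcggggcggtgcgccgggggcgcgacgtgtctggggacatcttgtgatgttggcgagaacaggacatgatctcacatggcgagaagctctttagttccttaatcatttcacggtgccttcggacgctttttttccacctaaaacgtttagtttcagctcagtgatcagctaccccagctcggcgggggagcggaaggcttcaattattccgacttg
Cr2 promoter (chr1:195176670-195176969, minus strand): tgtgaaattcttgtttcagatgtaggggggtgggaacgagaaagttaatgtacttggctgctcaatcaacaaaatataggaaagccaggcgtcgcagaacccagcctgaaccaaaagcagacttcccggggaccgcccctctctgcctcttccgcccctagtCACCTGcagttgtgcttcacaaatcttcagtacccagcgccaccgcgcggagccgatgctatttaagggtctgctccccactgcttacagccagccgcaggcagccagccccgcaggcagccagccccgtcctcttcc

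The search covered, on both strands, the octamer ATGCAAAT of the OCT factors, the E-box CAGGTG bound by E2A, the EBF1 palindrome (TCCC and GGGA with 2 bases between) and the Ets core GAGGAA bound by PU.1. The 300 bases of Cd79a held the E-box 154 bases and the Ets core 140 bases before the start, Cr2 held the E-box 88 bases before its start, and Pax5 held none of the 4. Of 32851 promoters searched alike, 20.2% held the E-box, 28.3% the Ets core, 1.74% the octamer and 0.904% the EBF1 palindrome. The E-box and the Ets core are thus common letters, and the matches describe these windows only.

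Sequencing depth was 4722396 to 56185434 counts a library in batch 1 (74 libraries, median 30186412). In batch 2 it was 29029239 to 43880986 (46 libraries, median 36440355). The batches are sequencing batches, since progressor mice 1 to 4 have libraries in both. All other mice of the age and onset series have libraries in 1 batch only, so the batches also differ in animals. The paper's supplement links the first batch to an original cohort and the second to a validation cohort. Levels below are CPM scaled by TMM over all 120 libraries (normalized CPM). CT010467.1, annotated as a ribosomal RNA gene, took 85.7% of the 18-week library of NOR mouse 5 against a median of 0.333% elsewhere, and the normalized levels of Cd79a, Pax5 and Bank1 in that library rested on 4, 4 and 3 counts.

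B cell transcripts were scarce in the INs, and Ms4a1, Cd79a, Pax5 and Blk gave few counts. Median levels over the 120 libraries were 0.172 normalized CPM for Ms4a1, 0.201 for Cd79a, 0.202 for Pax5 and 0.128 for Blk, but 1.14 for Cd79b, 1.06 for Cr2, 1.07 for Bank1 and 0.535 for Fcer2a. In counts, Ms4a1, Cd79a, Pax5 and Blk had medians of 6, 7, 6.5 and 4.5 a library, and 75, 78, 73 and 93 of 120 libraries were below 10. Ms4a1 had no count in 13 libraries and Blk in 12, where a count of 0 still allows a median of 0.124 and 0.0999 normalized CPM (3 counts). For scale, Csf1r, the macrophage growth factor receptor, had a median of 499, and Cd3e, a chain of the T cell receptor complex, one of 1.53. Per kilobase of exon, the only scale on which genes can be compared, the median level was highest for Cd79b at 0.796 normalized CPM, followed by Fcer2a at 0.173, Bank1 at 0.143, Cd79a at 0.138 and Cr2 at 0.131, with Blk at 0.0474, Ms4a1 at 0.0278 and Pax5 at 0.0228. Cd79b thus exceeded its partner Cd79a per kilobase in the typical library, although the proteins work as a heterodimer, whereas in their highest libraries the values were 6.38 and 6.05.

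The 4 genes with few counts also varied more. The highest level was 38.9 times the median for Ms4a1, 43.7 times for Cd79a, 51.5 times for Pax5 and 27.9 times for Blk, against 5.42 to 8.09 times for Cd79b, Cr2, Fcer2a and Bank1. Levels of at least 1 normalized CPM were reached by Ms4a1 in 11 libraries, Cd79a in 12, Pax5 in 15, Fcer2a in 12 and Blk in 7, and by Cd79b, Cr2 and Bank1 in 68, 71 and 65.

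**Figure D1:**
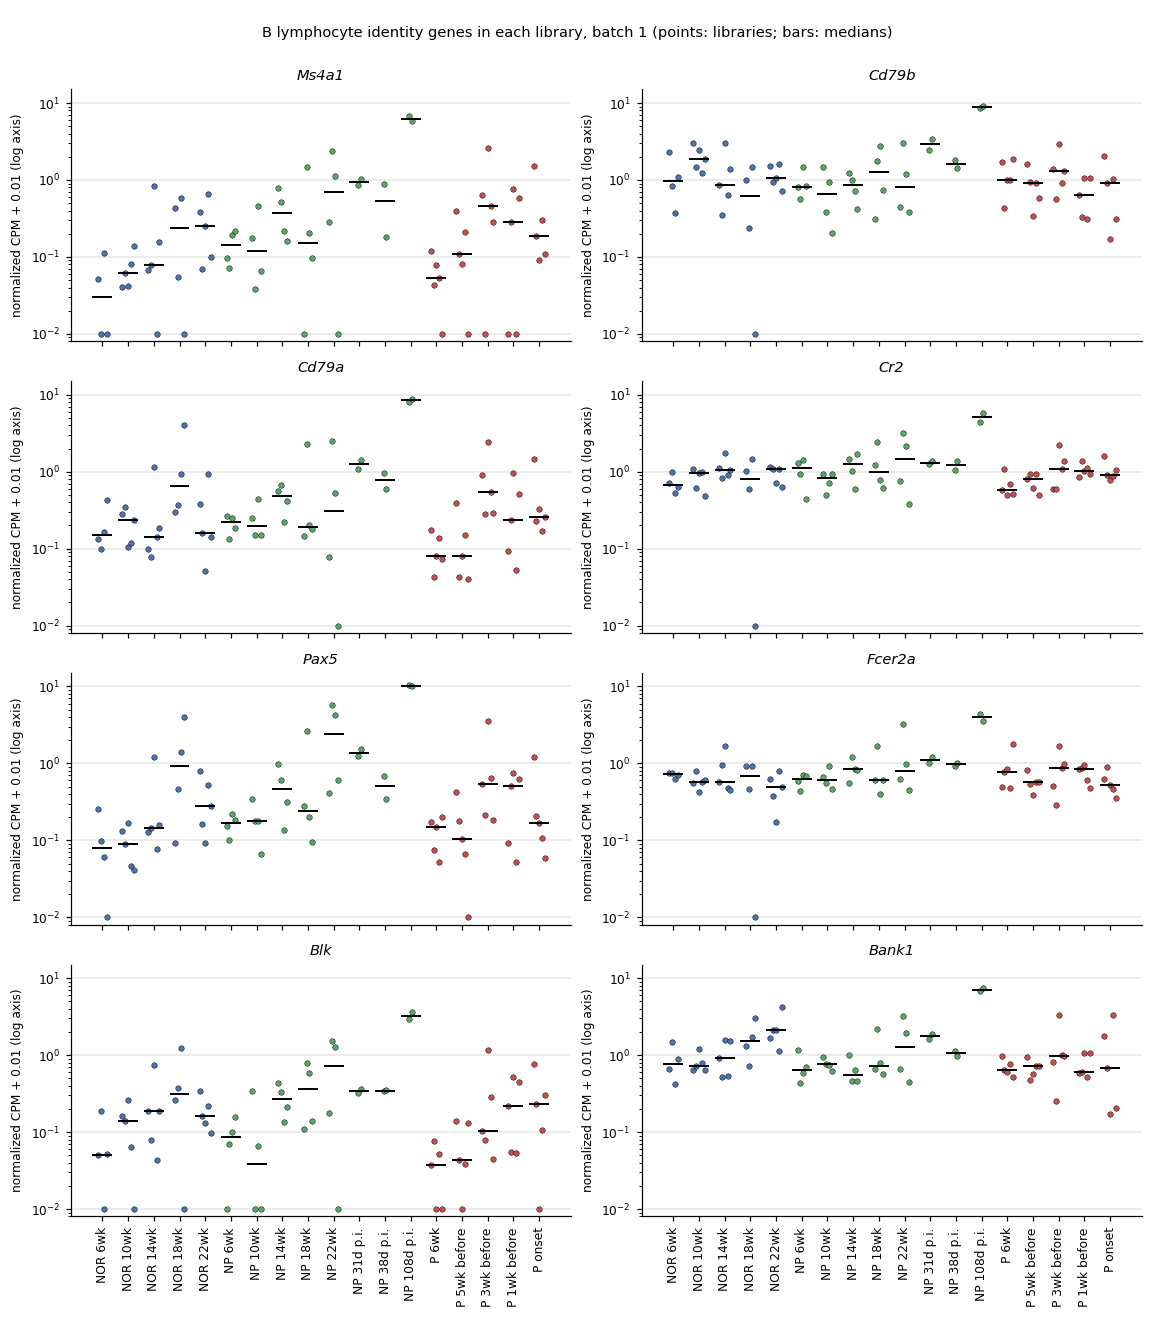
Level of each member in the 74 libraries of batch 1 by strain, outcome and time (P, progressors; NP, nonprogressors; p.i., post implant), as normalized CPM plus 0.01 on a log axis, with points for libraries and bars for medians. The 2 libraries at 108 days post implant sit at the top of every panel, at 5.84 to 6.70 normalized CPM for Ms4a1.

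**Figure D2:**
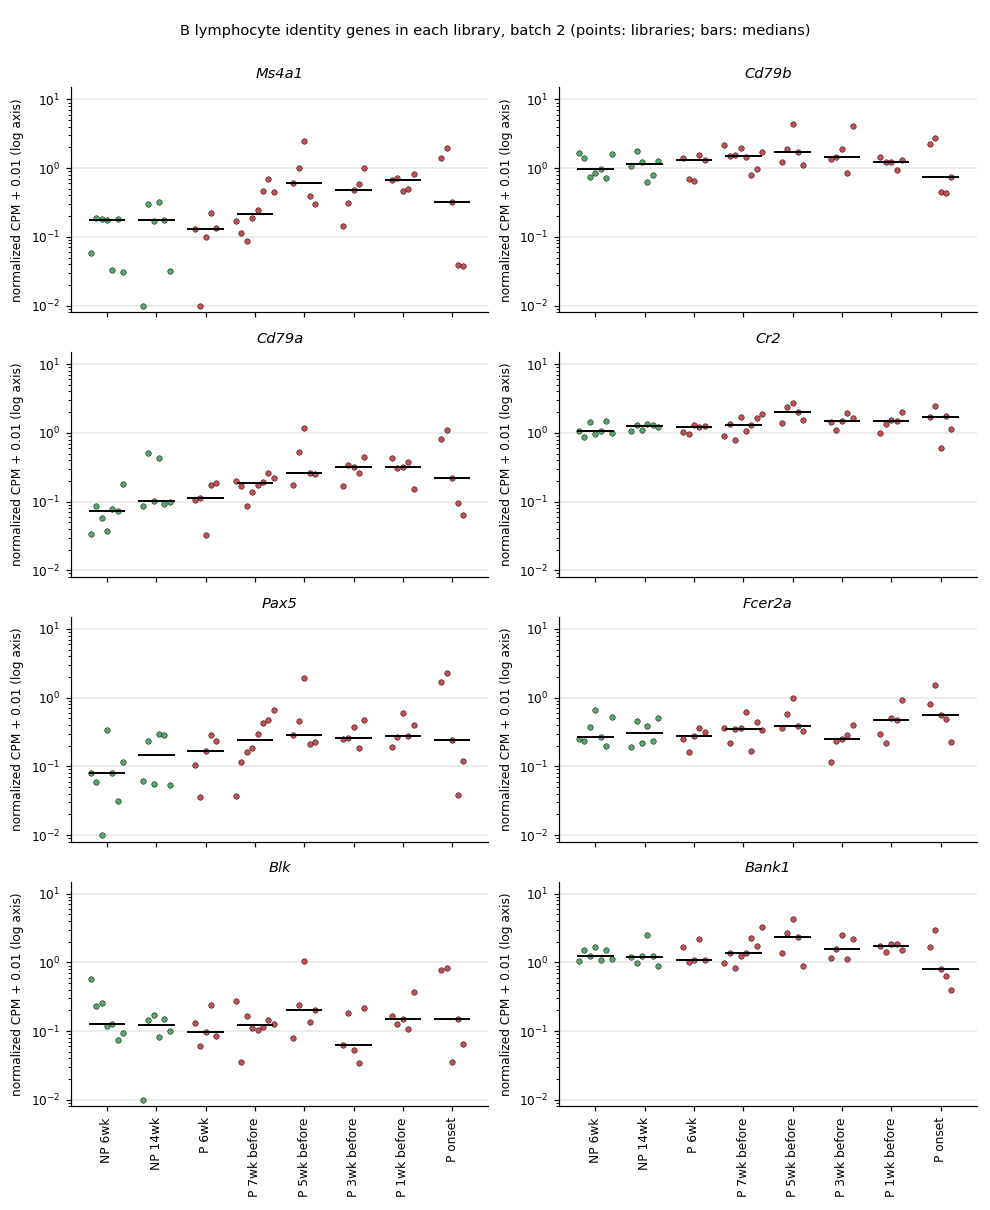
The same levels in the 46 libraries of batch 2, nonprogressors at 6 and 14 weeks of age and progressors from 6 weeks of age to onset, on the same log axis. At onset Ms4a1 ran from 0.0273 to 1.94 normalized CPM among 5 progressors, with 2 of them well above the others.

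The members' levels were correlated from IN to IN, those of Ms4a1 most closely in both batches. Spearman's rho between a member and the mean of the 7 others (z-scores of log2 normalized CPM) was 0.791 over the 74 libraries of batch 1 and 0.803 over the 46 of batch 2 for Ms4a1, 0.682 and 0.739 for Cd79a, and 0.663 and 0.747 for Pax5. Fcer2a followed least in batch 1, at 0.512 (0.423 in batch 2), and Blk least in batch 2, at 0.354 (0.732 in batch 1). By pairs, Ms4a1 followed Cd79a at 0.709 and 0.769 and Pax5 at 0.654 and 0.774, whereas Bank1 and Fcer2a shared only 0.234 in batch 1. These are descriptions: libraries of 1 mouse are not independent, and all members of a library share its depth and scaling.

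Genes made by antibody-producing cells moved most like the members. Among 15912 genes with a mean of at least 1 normalized CPM, the 10 with the highest rho to the members' mean in both batches were Igkc (0.830 and 0.661), Igkv6-20, Jchain (0.797 and 0.647), Zfp831, Ighg2b, Ighm, Igha, Ighg2c, Carmil2 and Ighg1. Of these 10, 7 encode immunoglobulin chains and Jchain the joining chain of secreted IgM and IgA. Marker lists were compared by the mean z-score of their genes (log2 normalized CPM) in each batch, genes with very low means left out. The members' mean gave rho of 0.859 and 0.784 with Ighm, Ighd and Igkc and 0.769 and 0.664 with plasma cell genes. With genes of follicle homing and lymphoid organization it gave 0.737 and 0.709, and with T cell genes 0.585 and 0.503. With macrophage genes it gave 0.318 and 0.0770, and with fibroblast genes 0.0128 and -0.147. By itself, Cd79b gave 0.692 and 0.606 with T cell genes, above its 0.625 and 0.501 with the mean of the other members. With macrophage genes Cd79b gave 0.443 and 0.368. Some lists of other tissues followed the members in batch 2 more than in batch 1, at 0.488 against -0.187 for skeletal muscle, 0.436 against 0.0148 for epidermis, 0.399 against 0.200 for adipocytes and 0.378 against 0.237 for mammary epithelium, while receptor signaling genes came to 0.328 against 0.519. The precursor list, at 0.114 and -0.101, followed the members little, and the median library had no count for its genes Igll1, Rag1, Rag2 and Vpreb3.

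The 2 batches differed in the levels of single members in ways that did not run in 1 direction. Over the 7 groups present in both (33 and 38 libraries), the batch 2 mean was 1.84 times that of batch 1 for Bank1, 1.46 times for Cd79b, 1.45 times for Cr2 and 1.39 times for Ms4a1, but 0.573 times for Fcer2a and 0.734 times for Cd79a. The ratio of Ms4a1 to Cd79a counts, which carries the unequal lengths of these genes alike in both batches, was 0.789 in batch 1 (1202 and 1524 summed counts) and 1.64 in batch 2 (771 and 469). Every comparison across batches therefore carried a batch term, and values within each batch are given beside it.

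The first question was whether B cell transcripts changed in INs as NOD progressors approached diabetes. Ms4a1 rose 6.81-fold from 6 weeks of age to onset, with Cd79a, Pax5 and Blk, and the other 4 members did not pass the test. In the 5 progressors of batch 1 (mice 1 to 5), Ms4a1 stood at 0.109, 0.0328, 0.0697, 0.0425 and 0 normalized CPM at 6 weeks and at 1.501, 0.180, 0.0801, 0.289 and 0.0991 at onset. In batch 2 (mice 6 to 10) it stood at 0.120, 0, 0.0886, 0.210 and 0.126, then at 1.39, 1.94, 0.313, 0.0283 and 0.0273. Mice 1, 6 and 7 were high at onset, mice 9 and 10 ended below their own 6-week IN, and 8 of 10 mice were higher at onset, although the values at onset and at 6 weeks overlapped. In bulk RNA, more B cells and more RNA per B cell cannot be told apart.

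Cd79a, the signaling partner of surface immunoglobulin, went from 0.163, 0.0328, 0.0697, 0.128 and 0.0634 to 1.44, 0.220, 0.321, 0.161 and 0.248 normalized CPM in batch 1. In batch 2 it went from 0.0963, 0.102, 0.0221, 0.164 and 0.176 to 0.811, 1.08, 0.209, 0.0850 and 0.0546. It was higher at onset in the same 8 mice, and in batch 1 only mouse 4, at 0.161, ended below the highest 6-week value. Pax5 was higher at onset in 7 of 10 mice, reaching 1.21 in mouse 1, 1.69 in mouse 6 and 2.29 in mouse 7, with the others between 0.0283 and 0.235 against 0.0255 to 0.281 at 6 weeks. Blk was higher in 6 of 10, at 0.751, 0.768 and 0.811 in those 3 mice and at most 0.297 in the others.

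The log2 fold changes from edgeR's quasi-likelihood test on 58 progressor libraries, adjusted by Benjamini-Hochberg over 21279 genes, were 2.77 ± 0.75 (SE) for Ms4a1 (adjusted p = 0.00275), 2.11 ± 0.57 for Cd79a (0.00264), 2.07 ± 0.69 for Pax5 (0.0148) and 2.03 ± 0.68 for Blk (0.0153). Cr2 came to 0.49 ± 0.22 (0.0691), Fcer2a to 0.44 ± 0.34, Bank1 to 0.37 ± 0.38 and Cd79b to -0.11 ± 0.37. All 4 of the 8 members that passed were higher at onset, where 39.6% of all genes tested passed and 19.6% passed as higher. The members' median was 1.26 against -0.0046 over all genes.

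**Figure D3:**
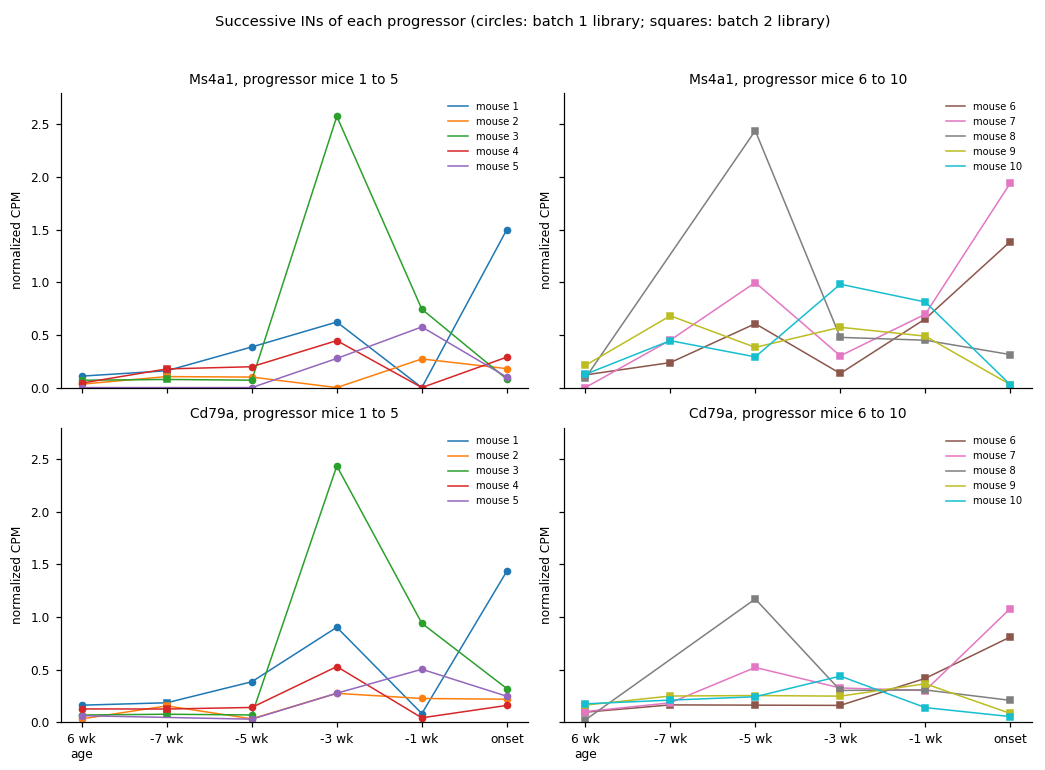
Ms4a1 and Cd79a in the successive INs of each progressor, in normalized CPM from 6 weeks of age through weeks before onset to onset, with 1 line a mouse, circles for batch 1 and squares for batch 2 libraries. Ms4a1 peaks at 2.58 in mouse 3 at 3 weeks and at 2.44 in mouse 8 at 5 weeks before onset and falls again, while mice 1, 6 and 7 are highest at onset.

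Within batch 1 alone 0 of the 7 members tested passed (18.1% of genes did): Ms4a1 gave 2.85 ± 1.23 (adjusted p = 0.105) and Cd79a 2.30 ± 0.89 (0.0732). Within batch 2, where 34.3% of genes passed, Ms4a1 (2.72 ± 0.85), Cd79a (1.99 ± 0.62), Pax5 (2.44 ± 0.82) and Fcer2a (1.43 ± 0.44, adjusted p = 0.0128) passed and Blk did not (0.0867). Fcer2a ran the other way in batch 1, at -0.56 ± 0.40. Cd79a and Ms4a1 passed whichever mouse was left out. Pax5 was lost without mouse 6 (1.72, adjusted p = 0.0707) or mouse 7 (1.47, 0.0997), and Blk without mouse 1 (1.69, 0.0650) or mouse 7 (1.74, 0.0625), whereas without mouse 3, 5 or 8 Blk had too few counts to be tested. Cr2 passed without mouse 2 (0.60, adjusted p = 0.0357), mouse 8 (0.65, 0.0173) or mouse 10 (0.59, 0.0490).

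The rest of the B cell program did not rise as a block at onset. Of 17 tested genes of receptor and coreceptor signaling 10 passed, 9 of them higher (list median 0.35), led by Prkcb (log2 0.72), Fcgr2b (1.39), Vav1 (0.36) and Syk (0.35), which are also used by myeloid cells and had high levels in every IN, Syk at a median of 426 normalized CPM. Of 11 transcription factors 5 passed (median -0.14), Irf8 (0.58) and the B cell coactivator Pou2af1 (1.74) higher and Ebf1 (-1.21), Tcf3 (-0.45) and Pou2f2 (-0.38) lower. Ebf1, a B cell factor that stromal and fat cells also express, had a median level of 53.8. Of 9 genes of follicle homing 3 passed (median 0.45), Fut7 higher (0.48) and Ccr7 (-0.67) and Cxcl13 (-1.40), the chemokine that draws B cells into follicles, lower. The 1 precursor gene with enough counts did not pass.

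Igkc and Jchain had larger fold changes at onset than any member, and Ighm a smaller one than the 4 members that passed. Igkc, the kappa light chain constant region, rose by 4.86 ± 0.93 on the log2 scale, Ighm by 1.43 ± 0.43 and Jchain by 4.73 ± 0.86, with Mzb1 at 2.78 and Sdc1 at 0.44 also passing (2 of 3 immunoglobulin genes and 3 of 8 plasma cell genes, medians 1.49 and 0.30). In the same INs 5 of 10 T cell genes rose (Cd6 by 1.63, Cd5 by 1.12), their summed level running from 13.6 to 29.7 normalized CPM at 6 weeks and from 13.2 to 21.8 at onset in batch 1, and from 7.40 to 15.9 and from 13.6 to 40.4 in batch 2. All 6 fibroblast genes fell, their sum running from 28900 to 53220 at 6 weeks and from 4350 to 13300 at onset in batch 2 (34030 to 63360 and 7120 to 32980 in batch 1). All 4 hair follicle genes were higher at onset, their sum reaching 5419 in 1 IN of batch 2 beside a median of 5.75. The part of these other cell types in the members' change was not tested.

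Across the 6 progressor time points, Cd79a (adjusted p = 0.00724) and Ms4a1 (0.0149) varied by the F test, which 35.6% of genes passed. With each mouse as a block Cd79a still passed and Ms4a1 did not (0.0508), and within batch 1 likewise Ms4a1 came to 0.118. Pax5 (0.0718), Blk (0.151), Cr2 (0.171), Cd79b (0.383), Fcer2a (0.676) and Bank1 (0.798) did not pass, although Pax5 did in DESeq2 (0.0372, with Cd79a and Ms4a1) and, in edgeR, without mouse 8 (0.0292) or mouse 9 (0.0419). The course was uneven. In batch 2 the median of Ms4a1 was 0.120 at 6 weeks, 0.207 at 7 weeks before onset, 0.607, 0.477 and 0.653 at 5, 3 and 1 weeks before and 0.313 at onset. The 8 INs at 7 weeks came from a mix of mice: mice 6, 7, 9 and 10, which were followed in batch 2, ran from 0.237 to 0.682 with a median of 0.448, and mice 1 to 4, whose other INs are in batch 1, ran from 0.0771 to 0.177 with a median of 0.132. All 4 mice of each set were above their own 6-week IN, although for mice 1 to 4 that IN is in the other batch. In batch 1 it was 0.0425 at 6 weeks, 0.0998, 0.446 and 0.272 at 5, 3 and 1 weeks before and 0.180 at onset. At 1 week before onset in batch 2 all 5 mice lay between 0.450 and 0.813, above the highest 6-week value of 0.210.

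At 7 weeks before onset, the earliest point set against 6 weeks of age, no member passed while 12.5% of genes did, and none had an unadjusted p under 0.05 in edgeR or DESeq2. Ms4a1 had the largest log2 fold change, 1.40 ± 0.80 (adjusted p = 0.263), and Fcer2a the lowest, -0.14 ± 0.39. Igkc (3.36) and Jchain (3.32) already passed there, with Tnfrsf17, the plasma cell receptor BCMA, at 1.62. With the mouse as a block the genes that passed fell from 2670 to 883. From 7 to 5 weeks before onset no member and no gene passed (0%), the members running from 0.14 for Bank1 to 1.10 for Ms4a1. The libraries from 5 weeks before onset to onset gave 0 members past the threshold against 7 weeks before (3.89% of genes passed, and 0 of them with the mouse as a block). At an unadjusted p under 0.05 were 2 of the 8 members and 4185 of 21279 genes, and DESeq2 called 0 members. Ms4a1 came to 1.29 ± 0.63 there (0.244).

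Age was examined next in nonprogressors, which did not become hyperglycemic. INs at onset were taken at later ages than 6-week INs, so age and disease cannot be told apart in progressors alone. Nonprogressors were sampled past 14 weeks in batch 1 only, and their change with age was not tested against the change in progressors. Pax5 alone passed at 10 to 22 weeks against 6 weeks of age, at a log2 fold change of 1.73 ± 0.64 (adjusted p = 0.0478), and its pass depended on single mice. In batch 1 (mice 1 to 4) Pax5 stood at 0.143, 0.0916, 0.213 and 0.175 normalized CPM at 6 weeks and at 0.406, 5.75, 4.28 and 0.590 at 22 weeks, all 4 above the 6-week INs. In between, at 18 weeks, it stood at 0.270, 2.66, 0.194 and 0.0855. In the 22-week libraries of mice 1 to 4 the largest gene took 12.8, 19.2, 24.3 and 30.5% of counts. At 6 weeks in batch 1 it took 2.08 to 4.43%. Pax5 in mouse 4 at 22 weeks rested on 8 counts, with 0 counts of Ms4a1, Cd79a and Blk. The part of this in the Pax5 call was not tested. In batch 2 Pax5 ran from 0 to 0.328 (median 0.0691) in 7 INs at 6 weeks and from 0.0444 to 0.284 (median 0.137) in 6 INs at 14 weeks, which overlap. Without mouse 2 the change was 0.89 with adjusted p = 0.347, and without mouse 1, 3, 6, 9, 10 or 11 it was 1.66 to 1.85 with adjusted p from 0.0530 to 0.105. Leaving out mouse 4, 5, 7 or 8 kept the pass, and with the mouse as a block the change was 1.52 (0.0727). Of all genes 24.1% passed and 9.88% passed as higher.

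The other members in aging nonprogressors ranged from 0.15 for Cr2 and Cd79b to 1.43 ± 0.59 for Cd79a (adjusted p = 0.0741), all above 0, with a median of 0.53 against -0.03 over all genes. Igkc rose by 3.33, Jchain by 2.59 and Ighm by 1.05 on the log2 scale, and of 17 signaling genes 5 rose (Syk by 0.35, Prkcb by 0.49, Blnk by 0.50 and Cd22 by 0.60 among them) and 1 fell. Ebf1 fell by 0.69 and Irf8 rose by 0.33 among transcription factors, Fut7 rose by 0.51, and 1 of 10 T cell genes, Cd5, rose by 0.75. All 6 fibroblast genes fell here too, and their part in these changes was not tested.

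In NOR controls no member passed at 10 to 22 weeks against 6 weeks, where only 0.0357% of genes did. Ms4a1 had the largest log2 fold change at 2.34 ± 1.09 (adjusted p = 0.724, unadjusted 0.0445). It was the 1 of 7 members under 0.05 before adjustment, as were 1341 of 19628 genes. Group medians of Ms4a1 were 0.0205, 0.0523, 0.0679, 0.231 and 0.246 normalized CPM at 6, 10, 14, 18 and 22 weeks. DESeq2 called 0. The F test over the 5 ages passed 8.24% of genes and 0 of 7 members. Before adjustment 3 of the 7 members and 4358 of 19628 genes were under 0.05. DESeq2 called Pax5 (0.0141) and Bank1 (0.0175). Bank1, the adaptor of receptor signaling, ran at medians of 0.761, 0.706, 0.906, 1.49 and 2.09 over those ages (adjusted p = 0.0582). Without the 18-week IN of mouse 5 Bank1 passed (0.0481), and without mouse 3 Pax5 did (0.0365). Antibody genes also had large fold changes with age in NOR mice. Igkc was at 3.75 ± 1.13 and Jchain at 2.82 ± 0.83 on the log2 scale, neither passing that contrast (adjusted p = 0.413 and 0.394). Both passed the F test (0.019 and 0.030), as did Siglecg (0.0068) and Fcrla (0.043), but Ighm did not (0.133). The change with age did not differ detectably between the strains in batch 1: the interaction passed no member and 0% of genes, no member was under 0.05 before adjustment, DESeq2 called 0, and the members ran from -0.68 (95% interval -3.71 to 2.36) for Ms4a1 to 0.74 (-0.35 to 1.84) for Fcer2a. The interval of Ms4a1 is wide enough to hold large differences either way.

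Strain was compared in batch 1 on counts summed over the INs of each mouse, 9 NOD against 5 NOR. Progressor INs after 6 weeks of age were taken by time to onset, so only nonprogressors share the sampled ages of NOR. No member passed, where 9.21% of genes did, and the members pointed both ways. Ms4a1 was at a log2 fold change of 1.12 (95% interval -0.02 to 2.26, adjusted p = 0.222) and Pax5 at 1.02 (-0.12 to 2.16), while Bank1 was at -0.43 (-0.91 to 0.04) and Cd79b at -0.51 (-0.999 to -0.02, adjusted p = 0.195). Cd79b was the 1 of 8 members under 0.05 before adjustment, where 5599 of 23727 genes were. DESeq2 called 0 members, with 3 under 0.05. Against NOR, nonprogressors ran from -0.56 for Cd79b to 1.44 for Pax5 (0 members and 7.17% of genes passed, DESeq2 0). Before adjustment 1 member and 5147 of 23727 genes were under 0.05 there. Progressors ran from -0.46 for Cd79b to 1.06 for Ms4a1 (0 members and 5.64% of genes passed, DESeq2 0), with 0 members and 4581 of 23727 genes under 0.05 before adjustment. The 2 comparisons share the NOR mice. Among the other B cell genes Cd22 was lower in NOD mice (log2 fold change -0.53), as was Bach2 (-0.18).

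The last question was whether the members separate progressors from nonprogressors. In 6-week INs 0 of the 4 members with enough counts passed, and 0% of genes did, with 0 members under 0.05 before adjustment and 0 of 8 called by DESeq2. The log2 fold changes were 0.13 for Cd79b, -0.22 for Cr2, 0.02 for Fcer2a and 0.04 for Bank1. Late in the study, progressors 1 week before onset and at onset against nonprogressors at 14 to 22 weeks, 0 members passed (0.00487% of genes did, 1 gene), 0 were under 0.05 before adjustment, and DESeq2, which tested 6, called 0. Ms4a1 was at 0.80 ± 0.57 and Cd79b at -0.01 ± 0.26. The batches pulled apart there: Pax5 was at -1.72 ± 0.68 within batch 1, where nonprogressors were sampled to 22 weeks, and at 1.97 ± 0.66 within batch 2, where they were sampled only at 14 weeks, and Ms4a1 at -0.53 ± 0.67 and 2.07 ± 0.66. None of these passed within a batch. At 14 weeks, the age sampled in both batches, nonprogressor Pax5 stood at 0.976, 0.606, 0.126 and 0.305 in batch 1 and ran from 0.0444 to 0.284 in batch 2, and the part of age and batch in the opposite signs was not tested.

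**Figure D4:**
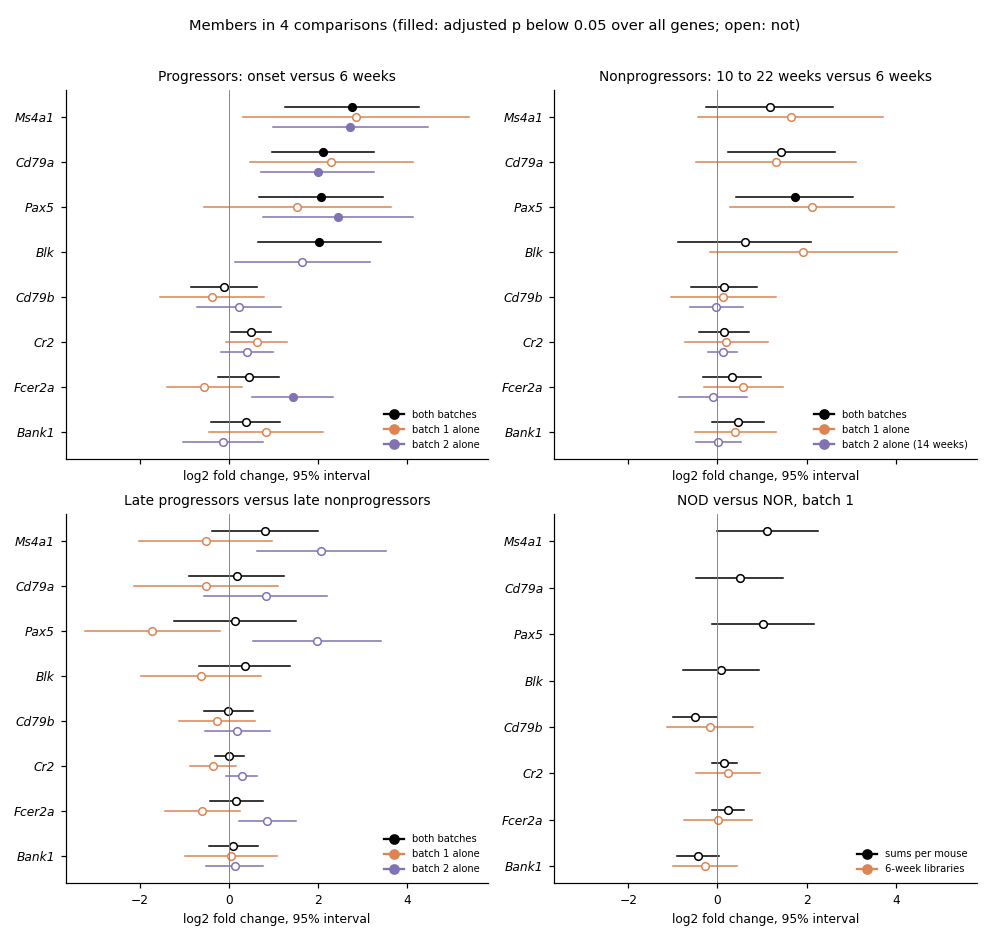
Log2 fold change of each member with its 95% interval in 4 comparisons, in black for the fit over both batches or the sums per mouse and in color for single batches or 6-week libraries, with filled points where the adjusted p over all genes passed. The 4 filled black points at onset (Ms4a1 at 2.77 to Blk at 2.03) and Pax5 at 1.73 in aging nonprogressors are the passes over both batches, and in late progressors the batches lie on opposite sides of 0 for Ms4a1 and Pax5.

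High levels came in single INs rather than in a whole group. NOR mice supplied 23 of the 114 libraries not labelled by days post implant. Among those 114, Ms4a1 reached 1 normalized CPM in 8, all of NOD mice and from 7 animals. Nonprogressor mouse 2 was at 1.48 at 18 weeks and 2.34 at 22 weeks, the 1 animal with 2 such INs in a row, and mouse 3 at 1.12 at 22 weeks. Progressor mouse 3 went from 0.0702 at 5 weeks before onset to 2.58 at 3 weeks and 0.745 at 1 week. Progressor mouse 8 went from 0.0886 at 6 weeks of age to 2.44 at 5 weeks before onset and 0.477 at 3 weeks. Other members were high in these INs too, but not all of them in each. In progressor mouse 3 Pax5 stood at 3.53, Bank1 at 3.28, Cd79b at 2.93 and Cd79a at 2.44. In progressor mouse 8 Cd79b at 4.33 and Bank1 at 4.21 were the highest of those 114. Progressor mice 1 and 6 at onset are also among the 8. Fcer2a in mouse 1 was at 0.620 there, beside a batch 1 median of 0.622. Bank1 in mouse 6 was at 1.69, beside 1.66 in its own 6-week IN. Pax5 was out of step with Cd79a in nonprogressor mouse 3 at 22 weeks, at 4.28 and 0.526, where mouse 2 at that age had 5.75 and 2.48. These 2 genes differ in length, so only the difference between INs can be read. In NOR INs Ms4a1 reached at most 0.826, but other members passed 1. Pax5 was at 1.38 and Blk at 1.24 in NOR mouse 4 at 18 weeks. In NOR mouse 3 at 14 weeks Pax5 was at 1.19 and Cd79a at 1.15. Of the 10 libraries highest for Cd79a, Ms4a1 shared 8 in batch 1 and 6 in batch 2, Pax5 8 and 5, Bank1 6 and 5, Cd79b 7 and 6, and Cr2, Fcer2a and Blk 7 and 4 each. Cd3e shared 4 and 5, so that in batch 2 it was level with Pax5 and Bank1 and above Cr2, Fcer2a and Blk, and Siglech, a marker of plasmacytoid dendritic cells, shared 2 and 2.

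The highest levels of every member were in the 2 nonprogressor INs labelled 108 days post implant. Ms4a1 was at 6.70 and 5.84 normalized CPM in library 1 and library 2, Cd79a at 8.08 and 8.81 and Pax5 at 10.4 and 10.0. Cd79b stood at 8.64 and 9.13, Bank1 at 6.70 and 7.46, Cr2 at 4.41 and 5.75, Fcer2a at 4.33 and 3.57 and Blk at 2.94 and 3.57. All 16 values exceeded the highest of the 114 libraries not labelled by days post implant, the nearest being Fcer2a in library 2 against 3.27. The means were 54.7 times the median of those 114 libraries for Pax5, 46.5 times for Cd79a, 37.4 times for Ms4a1 and 26.8 times for Blk, and 4.80 to 8.37 times for Cr2, Bank1, Fcer2a and Cd79b. The 2 libraries held 33.4% of all Pax5 counts of the study and 32.97% of those of Cd79a.

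Other lymphoid genes were high in the same 2 INs. Pou2af1 was at 13.5 and 8.99 normalized CPM, Ighm at 1299 and 806, Igkc at 1011 and 492.8 and Jchain at 113 and 70.1. Cxcr5, the receptor that leads B cells to follicles, was at 3.77 and 3.71 and its ligand Cxcl13 at 28.0 and 12.3, both below the highest of the other libraries (5.05 and 56.7). Cd3e was at 10.3 and 7.97, and the 10 T cell genes summed to 78.3 and 90.9. Csf1r was at 676 and 620, within its range elsewhere, and the 8 macrophage genes had a lower sum of 3119 and a higher one of 3342. At 31 days post implant Ms4a1 was at 0.851 and 1.01, Cd79a at 1.08 and 1.40 and Pax5 at 1.24 and 1.51, and at 38 days Ms4a1 was at 0.880 and 0.169, Cd79a at 0.951 and 0.593 and Pax5 at 0.669 and 0.339. These values at 31 and 38 days lay within the range of the other 114 libraries. With 2 libraries a time point no test was made, and time since implantation, age and the animal cannot be told apart. The labels of these INs give no age and do not say whether the scaffold had been replaced.

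**Figure D5:**
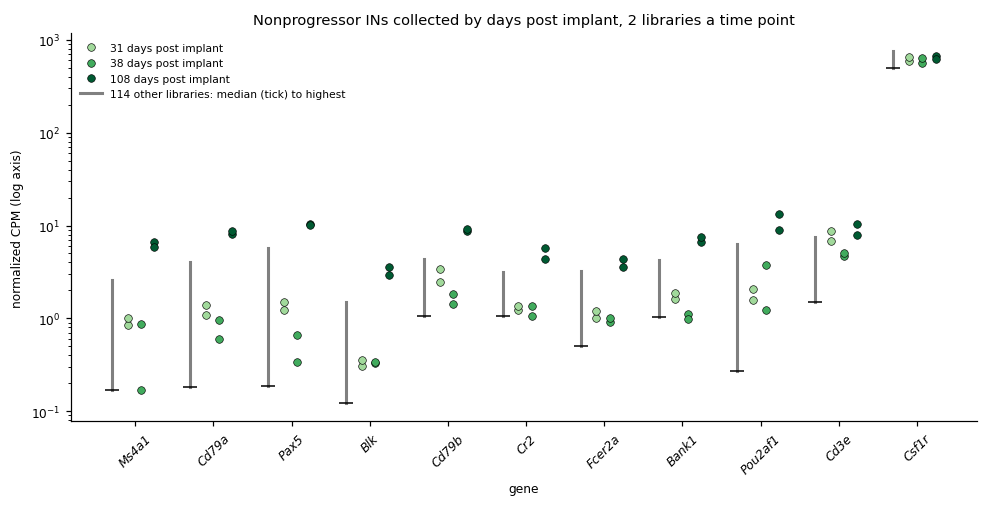
Normalized CPM (log axis) of the 8 members and 3 other genes (Pou2af1, Cd3e and Csf1r) in nonprogressor INs at 31, 38 and 108 days post implant, 2 libraries each, beside the median (tick) and highest value (upper end of the grey line) of the 114 other libraries. For every member both 108-day points lie above the grey line, whereas those of Csf1r, at 676 and 620, lie on it.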

How the data were processed

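Total RNA of 120 INs was ribosome-depleted and sequenced by the authors in 2 batches (batch 1, 74 libraries; batch 2, 46). The submitters' processing notes name cutadapt, FastQC, STAR, RSEM, MultiQC and GRCm38, and the annotation release is not given in the sources used here. The authors deposited 1 table of expected counts per gene for each batch (RSEM estimates, whole numbers in the files, not normalized), with 55492 and 55491 genes. Every column matched the labels of 1 library, leaving 0 columns of no sample. Depth ran from 4722396 to 56185434 counts, and intervals cover counting error and the spread between libraries of the labelled mice.

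From these counts, levels were computed as CPM with TMM scaling over all libraries. Comparisons used edgeR 4.0.16 (glmQLFit, glmQLFTest, filterByExpr) in R 4.3.3 on all genes, with Benjamini-Hochberg adjustment at 0.05 and a batch term where both batches entered. Strain, and late progressors against nonprogressors, were tested on counts summed per mouse. The code was tested on simulated counts. Standard errors are the fold change over the root of F, and intervals follow from them. Same-numbered libraries come from the same mouse by the labels, and their deviations from group means correlated at 0.00864 (NOR), 0.00775 (nonprogressors) and -0.00318 (progressors) on average. All 239 pairs of libraries within a group differed beyond sampling noise, with a chi-square of at least 11.966 times its degrees of freedom.

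Alternatives were DESeq2 1.42.0, its size factors, no filter on low counts, single batches, no batch term, the mouse as a block, libraries entered separately, 6-week libraries only, leaving out the 18-week IN of NOR mouse 5 and leaving out each mouse. All 8 members are named throughout, with up to 4 genes of each B cell list by smallest p among those that passed, of which some are not reported here. The members and lists were chosen with earlier results of these data known. Groups came from the labels, and the 6 libraries labelled by days post implant entered no test.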

Additional observations from a re-analysis of the deposited data

Results flagged for a closer look

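Single libraries stood far from the rest of their group in 6 of 184 sets of 4 to 10 libraries of a member, group and batch, by the gap to the nearest library over the range of log2 levels (chance gives about 1 in 20). In 3 the library was the highest: Pax5 in NOR mouse 3 at 14 weeks, at 1.19 normalized CPM with the next at 0.148, Cd79a in nonprogressor mouse 2 at 18 weeks, at 2.29 with the next at 0.194, and Bank1 in nonprogressor mouse 8 at 14 weeks, at 2.46 with the next at 1.22. In the other 3 the library had no count: Fcer2a in NOR mouse 5 at 18 weeks, at 0 in the library dominated by CT010467.1, Blk in nonprogressor mouse 5 at 14 weeks, at 0 with the next at 0.0709, and Ms4a1 in progressor mouse 7 at 6 weeks, at 0 with the next at 0.0886.

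The INs labelled by days post implant entered no comparison, and some of their means were above every NOR control library. At 31 days this held for Ms4a1, with a mean of 0.933 normalized CPM over 2 libraries against a highest NOR value of 0.826. Cd79a, at a mean of 1.24, was below the 4.04 of the 18-week IN of NOR mouse 5, which rests on 4 counts, and above the 1.15 that was the highest of the other NOR libraries. At 108 days it held for all 8 members, with means of 6.27 for Ms4a1, 8.45 for Cd79a, 8.89 for Cd79b, 10.2 for Pax5, 5.08 for Cr2, 3.95 for Fcer2a, 3.26 for Blk and 7.08 for Bank1. No difference was tested, as each time point has 2 libraries and the labels do not tie their mice to those of the age series.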

How the results depend on the processing

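The limits are those of low counts, with fewer than 10 counts of Ms4a1, Cd79a, Pax5 and Blk in most libraries. Of the values of single members, 232 of 266 fold changes and 83 of 90 F tests kept their direction and side of the threshold outside the leave-one-mouse-out fits.

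The calls that moved were these. For progressors at onset against 6 weeks, within batch 1 the count of members that passed was 0, and leaving out a mouse gave 2 to 5. For the progressor F test the count was 1 within batch 1 and 1 with the mouse as a replicate block, 3 with DESeq2 (against 2), and leaving out a mouse gave 2 to 3. For aging nonprogressors it was 0 with no filter on low counts, within batch 1, within batch 2 and with the mouse as a block, 4 with no batch term, and 0 to 1 on leaving out a mouse. For the NOR F test it was 2 with DESeq2, 1 without the 18-week IN of mouse 5 and 0 to 1 on leaving out a mouse. The replicate block changed no other call on the members. For all other comparisons the count was 0 in each setting run. The causes were not tested. The genes past the threshold moved by over 1.5 times in these cases. With 6-week libraries only they went from 2186 to 403 for NOD against NOR, 1701 to 244 for nonprogressors and 1339 to 355 for progressors. Within batch 1 they went from 8421 to 3549 at onset, 7574 to 3675 in the progressor F test and 5094 to 2712 in aging nonprogressors (9173 with no batch term). At 7 weeks before onset they went from 2670 to 4077 within batch 2 and to 883 with the block. From 5 weeks before onset on, 828 became 2157 with no batch term, 1352 within batch 2 and 0 with the block. In the NOR F test 1617 became 3982 with DESeq2 and 2601 without the 18-week IN, and the NOR age contrast went from 7 to between 0 and 54 over all settings. Late progressors went from 1 to between 0 and 79, and where no gene passed, at 5 against 7 weeks before onset, DESeq2 called 15 and batch 2 alone 2, and DESeq2 called 7 in the interaction. Leaving out a mouse gave 481 as the lowest in the NOR F test, 2786 in aging nonprogressors, 1475 at 7 weeks before onset, and 161 to 1509 from 5 weeks before onset on.

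Changes of sign concerned values that did not pass. At onset within batch 1 Fcer2a was at -0.56, and within batch 2 Bank1 was at -0.13 and Cd79b at 0.23. In aging nonprogressors Fcer2a within batch 2 was at -0.098, Cd79b at -0.025, and with no batch term Cd79b was at -0.014 and Bank1 at -0.032. At 6 weeks Fcer2a came to -0.00022 with no filter and -0.40 within batch 2, Cr2 to 0.022 and Cd79b to -0.025 within batch 2, and Bank1 to -0.063 with no batch term and -0.066 within batch 1. In late progressors Cd79b came to 0.00094 with no filter and 0.19 within batch 2, and Ms4a1 to -0.53 within batch 1. At 7 weeks before onset Fcer2a came to 0.39 within batch 2 and 0.12 with the block. At 5 against 7 weeks before onset Bank1 came to -0.12 with no batch term and -0.41 with the block. From 5 weeks before onset on Cd79b came to -0.0047 with no filter and -0.25 with no batch term. In progressors against NOR, Cd79b came to 0.014 in 6-week libraries. Leaving out a mouse moved Blk in NOD against NOR from -0.12 to 0.34, Cd79b at onset from -0.36 to 0.12, Bank1 there from -0.054 to 0.59, and in aging nonprogressors Fcer2a from -0.12 to 0.47, Cr2 from -0.14 to 0.31, Bank1 from -0.015 to 0.83 and Cd79b from -0.19 to 0.29. At 6 weeks Fcer2a ran from -0.18 to 0.15 and Bank1 from -0.089 to 0.15, in late progressors Cd79b from -0.13 to 0.18, at 7 weeks before onset Fcer2a from -0.42 to 0.12, at 5 against 7 weeks Bank1 from -0.12 to 0.50, and from 5 weeks before onset on Cd79b from -0.13 to 0.11.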
